A study of Mus musculus with 6 samples.

Results

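The genes described here are 10 mouse genes of inflammatory signalling: the chemokine genes Ccl3, Ccl4, Ccl6, Ccl9, Ccl2 and Cxcl2, the cytokine genes Tnf and Il1b, and the chemokine receptor genes Ccr1 and Ccr2. They were taken by symbol from the array annotation, and all 10 were among the 19938 genes measured, each through 1 probeset. They were chosen by their measured log2 differences between the vectors on these same arrays, so those differences are given as a description and without a test.

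Chemokines are small secreted proteins that bind G protein-coupled receptors on leukocytes and direct their migration. Ccl3 has long been studied in bone marrow as an inhibitor of stem and progenitor cell proliferation. Tnf and Il1b are secreted mainly by myeloid cells, signal through their own receptors to the transcription factor NF-kB, and push marrow progenitors toward myeloid output.

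Affymetrix arrays measured the RNA of KSL cells, the Lin-Kit+Sca-1+ fraction of bone marrow that holds stem cells and early progenitors, from young adult wild-type FVB/nJ mice. In the control_vector group, 3 samples received the lentivirus pCAD-IRES-GFP. In the HLX_vector group, 3 samples received the same backbone carrying mouse HLX, a homeobox transcription factor. The order of its parts is written pCAD-HLX-IRES-GFP in the sample labels and pCAD-IRES-GFP-Hlx in the series design. Cells of both groups met the virus in 8 µg/ml of polybrene, were grown for 2 days with serum, mouse IL-3, IL-6 and SCF, and were sorted for GFP. The growth factors and the virus were thus shared by both groups, and no uncultured or untransduced sample was compared here. The labels do not say whether replicates were separate mice or cultures, so every p-value rests on a spread between arrays that could be technical.

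Hlx, the transduced gene, had log2 levels of 6.99, 7.29 and 7.62 on the control arrays and 10.75, 9.74 and 10.28 on the HLX arrays, as labelled. Kit, which defines the sorted fraction together with the surface protein of Ly6a, had log2 levels of 9.20 to 9.53 on control and 9.31 to 9.59 on HLX arrays. Ly6a itself was not analysed here. Median log2 levels of the arrays were 6.32 to 6.40, and correlations between arrays were 0.980 to 0.987. The arrays numbered 1 of both vectors stood apart in 17 interferon response genes, with mean log2 levels of 7.63 (control) and 7.50 (HLX) against 6.61 to 6.87 on the other 4 arrays. Control array 1 also held the highest log2 level of the mast cell gene Cpa3, 7.47 against 4.77 to 5.10 elsewhere. The mean of 10 mast cell and basophil markers, Cpa3 included, was 5.70 there and 5.14 to 5.43 elsewhere. Not all of them were high on control array 1: Mcpt8 was at its highest (6.60), but Prss34 was at its lowest (5.56). Of 12 markers of monocytes and macrophages, 9 had a higher and 3 a lower mean with HLX. The mean log2 level of the 12 was 6.12 to 6.19 on control and 6.32 to 6.80 on HLX arrays, and 4 of the 12 were higher and 0 lower at an unadjusted p under 0.05, as were 2.44% and 2.36% of all genes. Csf1r, the receptor of macrophage colony-stimulating factor, had log2 levels of 6.28, 6.48 and 6.37 on control and 6.49, 7.80 and 8.92 on HLX arrays. Adgre1, which defines macrophages, had 4.54 to 4.85 and 4.75 to 5.37. The mean of 8 progenitor markers was 8.65 to 8.79 on control and 8.27 to 8.59 on HLX arrays. In a bulk sample, a change in the share of cells of a type and a change in RNA per cell cannot be told apart.

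Among the ligands, Ccl3 stood at the low end and Tnf at the high end of the log2 differences between HLX and control arrays. Ccl3, which encodes MIP-1 alpha, a ligand of Ccr1, had log2 levels of 7.67, 8.23 and 8.42 on control arrays 1, 2 and 3 and 7.39, 6.84 and 6.82 on HLX arrays 1, 2 and 3. Every HLX array lay below every control array, with a gap of 0.29 between the highest HLX and the lowest control level. The arrays nearest each other across the gap were those numbered 1. Mean levels of 8.11 ± 0.39 and 7.02 ± 0.32 (SD, n = 3) gave a log2 difference of -1.09 ± 0.23 (SE), a 2.13-fold lower level with HLX. Without both arrays numbered 1 the difference was -1.49 ± 0.14.

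Tnf, the founding tumour necrosis factor cytokine, had log2 levels of 7.51, 7.53 and 8.19 on the control arrays and 8.89, 8.47 and 8.59 on the HLX arrays. Here every HLX array lay above every control array, by at least 0.29, and control array 3 was the nearest. The means were 7.74 ± 0.39 and 8.65 ± 0.21 (SD, n = 3), a log2 difference of 0.91 ± 0.21 (SE) or 1.88-fold. Leaving out 1 array at a time gave Tnf differences of 0.79 to 1.13, and leaving out both arrays numbered 1 gave 0.67 ± 0.23.

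The sequences upstream of these start sites were set side by side to show what precedes the ligand genes with the largest differences in each direction, together with Cxcl2 for its NF-kB match. Of the 10 genes, 8 had an entry in the RefSeq promoter table of assembly GRCm38.p6, and Ccl2 and Ccl4 had none. Each line gives the 250 bases before the annotated start, 5′ to 3′ on the gene's strand. Capitals mark matches, on either strand, to any of 5 motifs: the NF-kB consensus, TATAAA, the AP-1 motif TGANTCA, the C/EBP motif TTGCNNAA and the homeodomain motif TAATTG. Positions are chr11:83649379-83649628 (minus strand) for Ccl3, chr11:83578637-83578886 (minus) for Ccl9, chr17:35202008-35202257 (minus) for Tnf, chr2:129371140-129371389 (minus) for Il1b and chr5:90903649-90903898 (plus) for Cxcl2.
Ccl3: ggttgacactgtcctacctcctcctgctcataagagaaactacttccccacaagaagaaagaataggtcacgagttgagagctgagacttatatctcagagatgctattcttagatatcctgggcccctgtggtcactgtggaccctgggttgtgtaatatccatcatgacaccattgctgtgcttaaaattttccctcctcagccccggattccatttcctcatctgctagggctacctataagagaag
Ccl9: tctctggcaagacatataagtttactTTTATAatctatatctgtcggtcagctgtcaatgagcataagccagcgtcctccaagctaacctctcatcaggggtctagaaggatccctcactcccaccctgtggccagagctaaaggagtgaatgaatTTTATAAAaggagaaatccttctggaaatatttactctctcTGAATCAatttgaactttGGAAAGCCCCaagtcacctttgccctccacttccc
Tnf: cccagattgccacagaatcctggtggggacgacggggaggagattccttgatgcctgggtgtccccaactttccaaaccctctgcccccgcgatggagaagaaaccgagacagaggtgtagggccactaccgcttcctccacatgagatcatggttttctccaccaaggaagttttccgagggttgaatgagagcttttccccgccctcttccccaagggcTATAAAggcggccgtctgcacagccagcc
Il1b: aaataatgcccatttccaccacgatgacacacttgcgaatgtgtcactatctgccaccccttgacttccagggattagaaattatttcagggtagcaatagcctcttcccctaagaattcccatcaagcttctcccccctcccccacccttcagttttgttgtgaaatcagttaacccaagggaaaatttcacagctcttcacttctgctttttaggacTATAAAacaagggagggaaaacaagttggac
Cxcl2: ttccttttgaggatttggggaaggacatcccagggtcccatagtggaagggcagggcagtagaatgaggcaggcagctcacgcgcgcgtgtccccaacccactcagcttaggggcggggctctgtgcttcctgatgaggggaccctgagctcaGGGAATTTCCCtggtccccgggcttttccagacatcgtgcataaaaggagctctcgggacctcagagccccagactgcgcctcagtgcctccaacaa

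The upstream window of Tnf held TATAAA at 29 to 24 bases before the start, and that of Il1b at 31 to 26 bases. Ccl3 held no match to any of the 5 motifs in this window. Whether matches go with the direction of the differences was not tested. Ccl9 held TATAAA in 3 places, of which 2 overlapped each other. It also held TGAATCA, a match to the loosened TGANTCA only and not called an AP-1 site, at 53 to 47 bases. An NF-kB consensus match, GGAAAGCCCC as read on the gene's strand, lay at 35 to 26 bases. Cxcl2 held the NF-kB consensus in overlapping forms, GGGAATTTCC and GGAATTTCCC, between 97 and 87 bases before the start. Among the other members, Ccr1 held an NF-kB consensus match and Ccl6 and Ccr2 held none of the 5. Over all 32851 promoters of the table, 7.25% held an NF-kB consensus match in the same window, 12.4% TATAAA, 6.75% TGANTCA, 9.56% TTGCNNAA and 7.17% TAATTG. A match is a match of letters only, and none of the arrays measured binding.

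**Figure D1:**
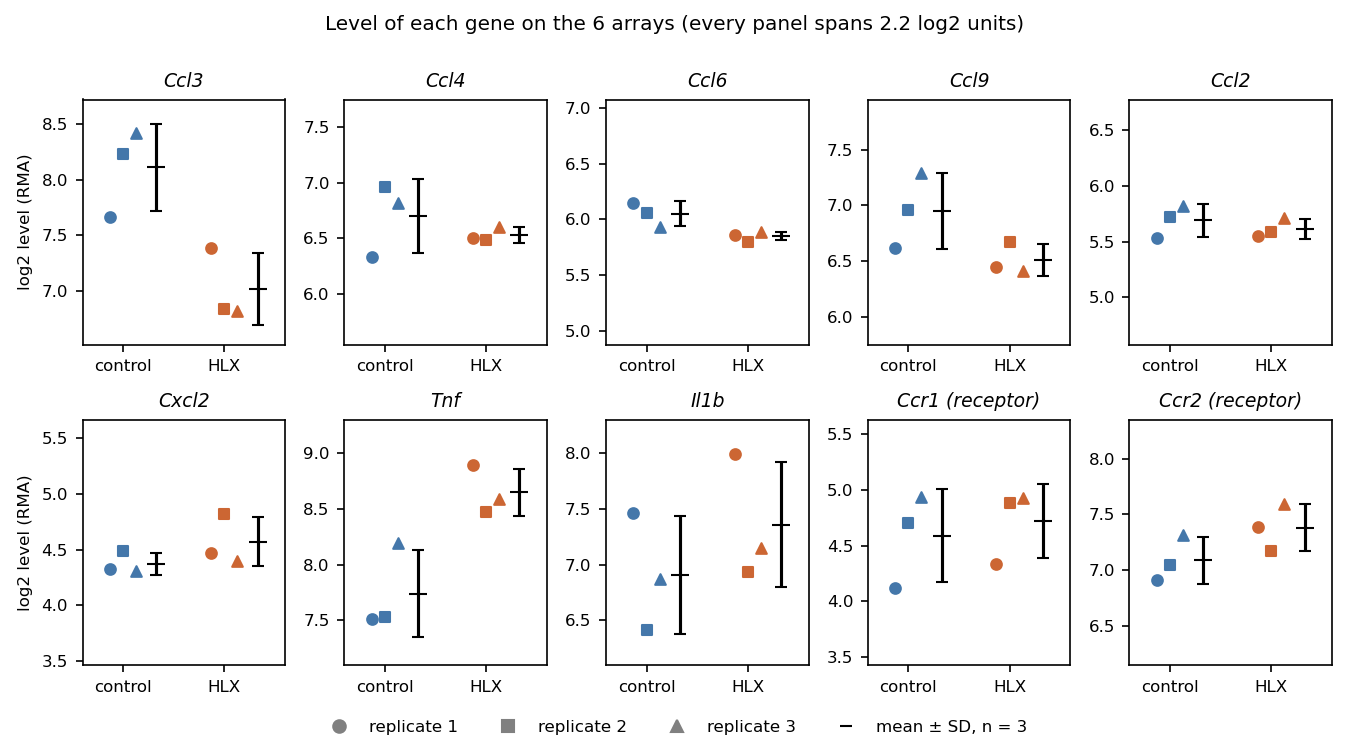
Log2 level (RMA, y axis) of each of the 10 genes on the 3 control_vector and 3 HLX_vector arrays. Points are arrays, with the marker shape giving the replicate number, black bars are mean ± SD (n = 3), and every panel spans the same height. The groups are separate for Ccl3, Ccl6 and Tnf and overlap for the other 7 genes, and the arrays numbered 1 are the highest of their group for Il1b and the lowest of their group for Ccr1.

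Ccl4, Ccl6 and Ccl9 share a stretch of chromosome 11 with Ccl3. In the RefSeq table the coding genes follow one another as Ccl5, Ccl9, Ccl6, Ccl3 and Ccl4, and the annotated spans of Ccl3 and Ccl4 overlap; whether their probesets share signal was not tested. Ccl9, which encodes MIP-1 gamma and signals through Ccr1, had log2 levels of 6.62, 6.96 and 7.29 on control and 6.45, 6.67 and 6.41 on HLX arrays. Its groups overlapped, since HLX array 2 lay above control array 1. The log2 difference was -0.45 ± 0.18 (SE, n = 3 per group), and without control array 3 it was -0.28 ± 0.15.

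Ccl6, another ligand of Ccr1, was lower by less but without overlap. Its log2 levels were 6.15, 6.06 and 5.93 on control and 5.86, 5.80 and 5.89 on HLX arrays, a difference of -0.20 ± 0.10, and the groups were 0.04 apart. Ccl4, which encodes MIP-1 beta, an attractant of macrophages and T cells, had 6.33, 6.96 and 6.82 on control and 6.50, 6.48 and 6.60 on HLX arrays. Control array 1 was the lowest of all 6, so the groups overlapped. The difference of Ccl4 was -0.17 ± 0.16 with all arrays, -0.36 ± 0.11 without control array 1 and -0.05 ± 0.16 without control array 2.

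The 4 genes of this stretch were thus all lower in their HLX means, from Ccl3 at -1.09 to Ccl4 at -0.17. Ccl5, their neighbour on one side, was named for its place after its values were seen. It had log2 levels of 9.96, 10.33 and 10.79 on control and 9.82, 10.32 and 10.09 on HLX arrays, a difference of -0.28 ± 0.22. Over all genes, 52.5% had a difference below 0.

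Ccl2 and Cxcl2, ligands of Ccr2 and Cxcr2, had small differences. Ccl2, which draws monocytes out of the marrow, had log2 levels of 5.53, 5.72 and 5.82 on control and 5.55, 5.59 and 5.71 on HLX arrays. The HLX values lay inside the control range, and the difference was -0.08 ± 0.11. Cxcl2, a neutrophil attractant, had 4.33, 4.49 and 4.31 on control and 4.47, 4.82 and 4.40 on HLX arrays. HLX array 2 alone lay above all control arrays. The difference of Cxcl2 was 0.19 ± 0.13, and without HLX array 2 it was 0.06 ± 0.11.

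Il1b, which encodes the interleukin-1 made and secreted by activated myeloid cells, was highest on the arrays numbered 1. Its log2 levels were 7.46, 6.41 and 6.87 on control and 7.99, 6.93 and 7.15 on HLX arrays. The highest array of each group was the one numbered 1, and those were the arrays with the high interferon response genes, whose part in the level of Il1b was not tested. Each HLX array lay above the control array of the same number, but the groups overlapped widely and the numbers do not mark known pairs. Means of 6.91 ± 0.53 and 7.36 ± 0.56 (SD, n = 3) gave a difference of 0.45 ± 0.34 (SE). It was 0.13 ± 0.29 without HLX array 1, 0.20 ± 0.34 without control array 2, 0.72 ± 0.33 without control array 1 and 0.40 ± 0.20 without both arrays numbered 1. With a replicate block the difference was 0.45 ± 0.11, a smaller SE that holds only if the numbers mark pairs.

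Of the receptors, Ccr2, which binds Ccl2 and marks monocytes and their progenitors, had log2 levels of 6.91, 7.05 and 7.32 on control and 7.39, 7.17 and 7.59 on HLX arrays. HLX arrays 1 and 3 lay above all control arrays and HLX array 2 did not. The difference was 0.29 ± 0.15 (SE, n = 3 per group). Ccr1, the receptor of Ccl3, Ccl6 and Ccl9, had 4.12, 4.70 and 4.94 on control and 4.34, 4.88 and 4.93 on HLX arrays. The arrays numbered 1 were the lowest of both groups. Its difference of 0.13 ± 0.24 turned to -0.11 ± 0.21 without control array 1 and to -0.01 ± 0.24 with weighted arrays, so Ccr1 has no settled direction.

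By role, 5 of the 8 ligand genes had lower and 3 had higher means on the HLX arrays. Their median log2 difference was -0.13, between -1.09 and 0.91 at the ends. The receptor genes had differences of 0.29 (Ccr2) and 0.13 (Ccr1), both with overlapping groups, and their median of 0.21 became 0.05 without control array 1. The median over all 19938 genes was -0.01. The absolute difference had a median of 0.32 among the ligands and 0.090 among all genes, which is given without a test because size entered the choice of members. Groups did not overlap for 3 of the 10 genes, against 9.19% of all genes. Of the 3, Ccl3 and Ccl6 were lower, as were 4.85% of all genes, and Tnf was higher, as were 4.34%. Nothing is read from these counts, since the choice used the same contrast.

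**Figure D2:**
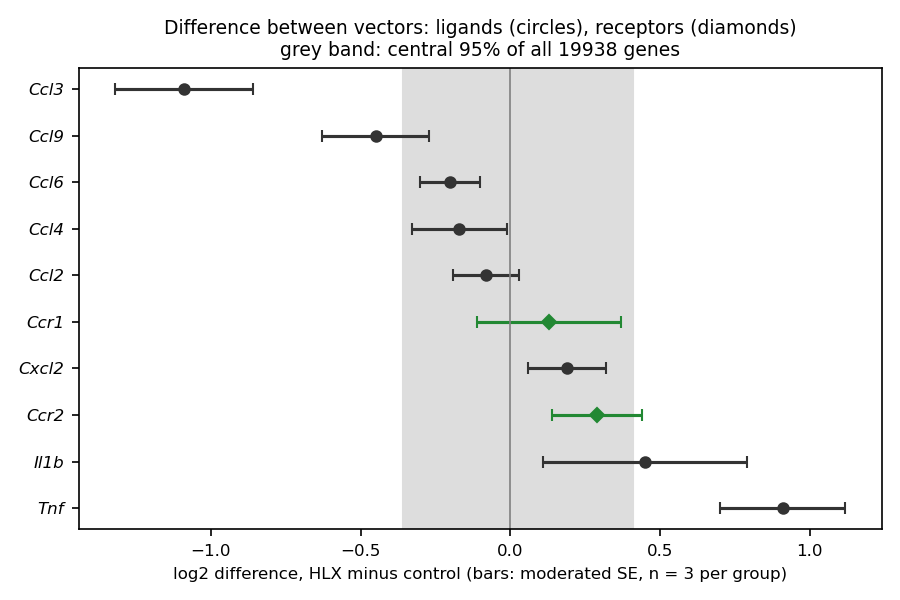
Log2 difference between HLX_vector and control_vector (x axis, HLX minus control) for the 8 ligand genes (circles) and 2 receptor genes (diamonds), with moderated SE bars (n = 3 per group). The grey band holds the central 95% of all 19938 genes, from -0.36 to 0.41. Ccl3 lies below the band and Tnf above it. Ccl9, at -0.45, is below it with all arrays and inside it without control array 3 (-0.28). Il1b, at 0.45, is just above it with all arrays and inside it without HLX array 1 (0.13) or control array 2 (0.20), and the bars of Ccl2 and Ccr1 cross 0.

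The 10 genes did not share one pattern over the 6 arrays. Each gene was centred on its own mean, and pairs were compared by their root mean square difference. It was 0.14 log2 units between Ccl2 and Ccl4, the smallest of all pairs of members. Ccl3 and Ccl9 were 0.40 apart and Tnf and Il1b 0.50. This measure grows with the size of the changes as well as with differences in course. Ccl2 and Ccl4 varied over narrower ranges than Ccl3 and Ccl9. The distance of 0.40 therefore does not show that Ccl3 and Ccl9 took different courses. Both were highest on control array 3 and lowest on HLX array 3, the latter by little (Ccl3 6.82 against 6.84, Ccl9 6.41 against 6.45). Among the HLX arrays, Ccl3 was highest on array 1 (7.39) and Ccl9 on array 2 (6.67). The genes outside the set most like Ccl3 by this measure were Cd33 (0.21), a sialic acid-binding receptor of myeloid cells, Slc2a3 (0.23), a glucose transporter, Syt11 (0.26), Atp8b4 (0.27) and Fsd1l (0.28). The median distance of all genes from Ccl3 was 0.63. Those most like Tnf were Gna11 (0.19), a G protein subunit, Snord35b (0.20), a small nucleolar RNA, Thy1 (0.21), a surface glycoprotein, Ube2s (0.21), an enzyme of mitotic ubiquitination, and Rbis (0.21), against a median of 0.54. The distances are descriptions over 6 arrays of 2 groups. The log2 difference between vectors was -0.81 for Cd33 and 0.69 for Gna11.

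Over all 19938 genes, 0% passed an adjusted p under 0.05 by limma with Benjamini-Hochberg adjustment and 4.8% an unadjusted p under 0.05. Hlx itself, with a log2 difference of 2.95 ± 0.27, had an adjusted p from limma of 0.0782. A count of 0 at the adjusted threshold therefore does not show that a gene was unchanged. The lists that follow are read against those shares of all genes. Of 30 other chemokine ligand genes, 0 passed the adjusted threshold in either direction. At an unadjusted p under 0.05 there was 1 lower and 0 higher, or 3.33%, against 4.8% of all genes. It was Cxcl9, an interferon-induced T cell attractant, with log2 levels of 6.33, 6.24 and 6.09 on control and 6.06, 5.85 and 5.93 on HLX arrays (difference -0.28 ± 0.11). Ccl20 differed by -0.25 ± 0.12. Ccl22 had 0.59 ± 0.33 and Ccl1 0.79 ± 0.49, both with overlapping groups. The median difference of the list was -0.061.

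Of 20 other chemokine receptor genes 0 passed the adjusted threshold and 1 stood at an unadjusted p under 0.05, or 5%, which is near the 4.8% of all genes. That gene was Cxcr2, the receptor of Cxcl2 on neutrophils, with log2 levels of 4.42, 4.74 and 4.26 on control and 5.32, 7.17 and 4.94 on HLX arrays. All HLX arrays lay above all control arrays, but HLX array 2 was far above the others of its group, and the difference was 1.34 ± 0.53 (SE). Cxcr2 also stands in the neutrophil marker list, whose 11 genes had mean log2 levels of 5.38 to 5.53 on control and 5.36 to 5.61 on HLX arrays. That mean includes Cxcr2 itself, so it is no separate reading of neutrophil content. Of the 11 genes, 5 had a lower and 6 a higher mean with HLX, and Mpo was lower, at -1.16 ± 0.38. The part of neutrophils in the Cxcr2 value was not tested. Cxcr6 (-0.18 ± 0.11), Ccr7 (0.21 ± 0.13) and Cxcr4 (-0.22 ± 0.20), the receptor that holds stem cells in the marrow, followed by size of p. The median of the list was 0.024.

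In the IL-1 and TNF pathway list 0 of 24 measured genes passed the adjusted threshold, and 2 were higher and 0 lower at an unadjusted p under 0.05, or 8.33% against 4.8% of all genes. Ltb, which encodes lymphotoxin beta and lies next to Tnf in the RefSeq table, had log2 levels of 9.80, 9.35 and 10.26 on control and 10.50, 10.28 and 10.80 on HLX arrays. The groups were 0.02 apart, with a difference of 0.72 ± 0.24 and an adjusted p from limma of 0.932. Lta, the neighbour of Tnf on the other side, was named for its place after its values were seen. It had 5.13 to 5.65 on control and 5.34 to 5.54 on HLX arrays.

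Il1rap, the accessory chain of the IL-1 receptor, differed by 0.32 ± 0.11 (adjusted p from limma 0.983). Il1a, the neighbour of Il1b, had log2 levels of 4.29, 4.22 and 4.21 on control and 4.63, 4.39 and 5.79 on HLX arrays, a difference of 0.70 ± 0.33 with HLX array 3 far above the rest. Casp1, the protease that activates the Il1b protein, had -0.38 ± 0.17.

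Among NF-kB subunits and feedback genes 0 of 21 passed the adjusted threshold, and 3 were higher and 0 lower at an unadjusted p under 0.05, or 14.3% against 4.8% of all genes. They were Tnip1, an inhibitor of the pathway (0.31 ± 0.11), Traf1, an adaptor of TNF receptors (0.36 ± 0.13), and Nfkb2, a subunit gene (0.26 ± 0.11). Nfkb2 had log2 levels of 7.77, 7.77 and 7.76 on control and 8.09, 7.84 and 8.15 on HLX arrays. Icam1, an adhesion molecule gene, had 0.39 ± 0.19. The 4 named genes were all higher, but of the 21 measured 15 had a higher and 6 a lower mean with HLX. Among all genes, 52.5% had a lower mean. The median of the list was 0.10. The count of 3 became 0 without both arrays numbered 1, and 1 without control array 2, HLX array 1 or HLX array 3 (a check chosen after seeing the data).

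Genes of chemokine receptor signalling gave 0 adjusted calls among 23, with 1 lower and 3 higher at an unadjusted p under 0.05, or 17.4% against 4.8% of all genes. Elmo1, which works with Dock2 in cell migration, had log2 levels of 9.36, 9.50 and 9.58 on control and 9.11, 9.09 and 9.01 on HLX arrays. Its groups did not overlap, and the difference was -0.40 ± 0.10 (adjusted p from limma 0.901). Prex1, an activator of Rac, was at 0.41 ± 0.12, Was, a regulator of actin, at 0.32 ± 0.11 and Rgs2, a regulator of G protein signalling, at 0.50 ± 0.21, with adjusted p from limma of 0.932, 0.975 and 1.

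**Figure D3:**
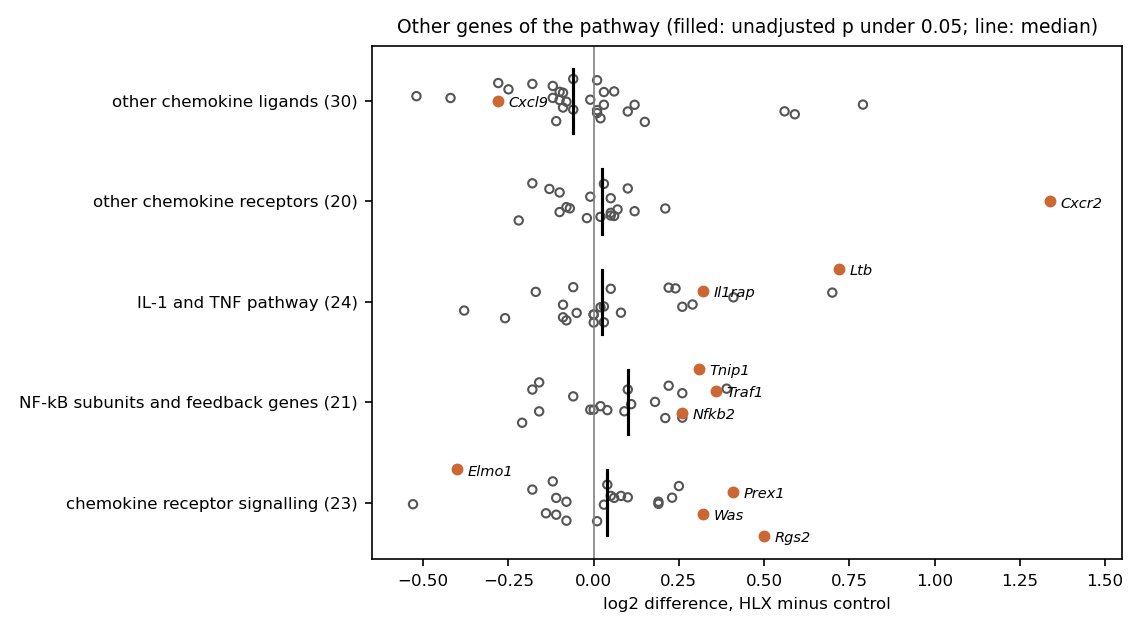
Log2 difference between vectors (x axis, HLX minus control) for genes of 5 lists, with the number measured beside each name. Points are genes, filled where the unadjusted p from limma was under 0.05, and vertical lines are list medians, which run from -0.061 for the other ligands to 0.10 for the NF-kB genes. Cxcr2, at 1.34, lies farthest from 0.

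Set against the marker lists array by array, the members took different courses. Ccl3 was lowest on HLX arrays 2 and 3, where the mean of the monocyte and macrophage markers was highest (6.40 and 6.80), and the part of that list in the level of Ccl3 was not tested. Tnf was at 8.47 to 8.89 on the HLX arrays and highest on HLX array 1, where the same list stood at 6.32. Both Tnf and the list mean were higher on every HLX array than on every control array. The part of the list in the level of Tnf was not tested. On control array 1, which had the highest interferon list mean (7.63), Tnf was at its lowest level, 7.51, and Il1b at its second highest. Tnf was almost level with this on control array 2 (7.53). HLX array 1 had the second highest list mean (7.50) and the highest levels of both Tnf and Il1b. The part of the interferon list in either level was not tested.

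**Figure D4:**
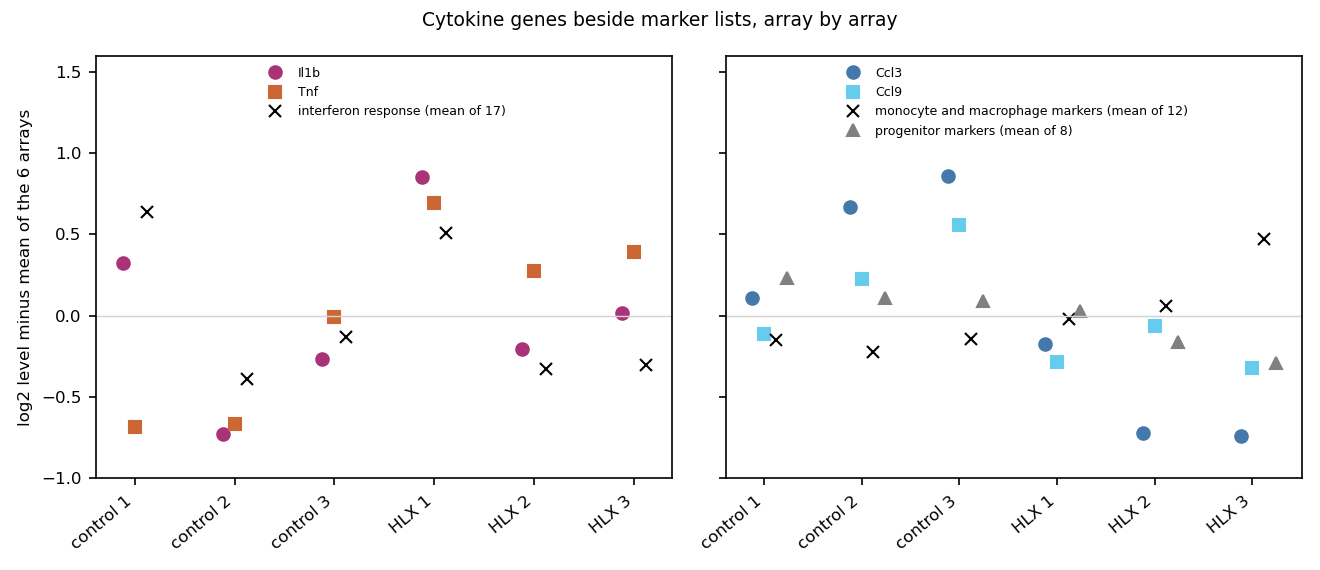
Level on each array minus the mean of the 6 arrays (y axis, log2 units) for Il1b and Tnf beside the mean of 17 interferon response genes (left), and for Ccl3 and Ccl9 beside the means of 12 monocyte and macrophage markers and 8 progenitor markers (right). Il1b and the interferon list are both high on the arrays numbered 1, and Ccl3 is below its mean on all 3 HLX arrays.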

How the data were processed

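Per the submitters' processing notes, the authors made the deposited log2 levels, 1 per probeset and array, with RMA in Affymetrix Power Tools. No label gives the scale, which was taken as log2 from the values. RMA compresses weak signals, and 4 of the 10 genes (Ccl2, Ccl6, Cxcl2, Ccr1) lay below the median of all probesets. For the probe annotation, the build was not given in the sources used here. Of 35556 probesets, 21789 carried 1 gene symbol, 1621 several and 12146 were unlisted. The brightest 1-symbol probeset of each gene by mean over 6 arrays was kept, giving 19938 genes, with no filter on dim ones. Log2 levels were fitted with limma 3.58.1 (lmFit, eBayes; 4 residual and 3.32 prior degrees of freedom) in R 4.3.3, 2-sided, adjusted by Benjamini-Hochberg over all genes at 0.05. SEs are moderated. The code was tested on simulated data. The number of arrays limits the precision.

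Members and lists were chosen with earlier results of these data known. From each pathway list up to 4 genes with the smallest p were named, besides the members, Hlx, defining markers and the 5 genes most like Ccl3 and Tnf. Figures used matplotlib 3.10.9. Alternatives were a filter on dim probesets, other normalizations, priors, array weights, a replicate block, the mean of probesets and leaving out arrays.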

Additional observations from a re-analysis of the deposited data

How the results depend on the processing

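Over 15 alternatives, of 266 values recomputed, 246 stayed within the spread between replicates or, for counts, near those reported. Much of this was fixed in advance. Leaving out 1 array cannot move the difference of a member beyond that spread. The other prior, the replicate block, the mean of probesets and the filter on dim probesets leave the differences of measured members unchanged. The 246 is therefore no measure of stability. Signs of all members held except for Ccr1, at -0.01 with array weights and -0.11 without control array 1. Ccl3 moved beyond its spread once, to -1.49 without both arrays numbered 1. With a trended and robust prior 1 gene was called, Hlx. Among genes above the median level 606 were at an unadjusted p under 0.05 against 958, since fewer genes were tested, and 3 ligands were lower of the 5 still measured, with 0 other chemokine genes at that p. The count of other chemokine genes, 2 as reported, was 1 after median centring, quantile normalization, cyclic loess or the trended prior, 0 without both arrays numbered 1, and 0 to 4 with 1 array left out (0 without control array 1, 1 without control array 2, 4 without control array 3 or HLX array 3). For the monocyte and macrophage markers, a check chosen after seeing the data, the count of 4 was 3 to 5, and that of the NF-kB genes was 1 among genes above the median level or with the trended prior. The cause was not tested. Leaving out 1 array gave ligand medians of -0.17 to -0.06, receptor medians of 0.05 to 0.36 (the lowest without control array 1, the highest without control array 3) and 805 to 1269 genes at an unadjusted p under 0.05. Median centring turned the share of higher genes at that p from 50.8% to 61.9%. Deviations of same-numbered arrays correlated at 0.20, 0.0085 and 0.143, and those of differently numbered arrays at -0.225 to 0.105. The values for numbers 1 and 3 were thus the highest, and they do not settle whether the numbers mark pairs. The numbers were not taken as pairs because they do not mark known pairs. With a replicate block 0 genes were called and 1205 stood at an unadjusted p under 0.05, and not every array correlated best with its own number.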

Other observations

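Some chemokine genes outside the set varied between arrays more than between vectors. Pf4, the platelet factor chemokine, had log2 levels of 10.72, 8.74 and 9.40 on control and 9.62, 9.42 and 8.26 on HLX arrays. Ccl1, a ligand of Ccr8, had 7.83, 8.56 and 9.56 on control and 8.61, 9.73 and 9.98 on HLX arrays. Cxcl10, an interferon-induced ligand of Cxcr3, had 7.93, 6.43 and 7.22 on control and 7.17, 6.62 and 6.53 on HLX arrays, with the highest level on control array 1. Pf4 and Cxcl10 were named after their values were seen.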
